A study of Mus musculus with 12 samples.

Results

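The 7 genes described here carry antigen presentation by MHC class II. They are the chain genes H2-Aa, H2-Ab1 and H2-Eb1, the invariant chain gene Cd74, the peptide-exchange genes H2-DMa and H2-DMb1, and Ciita, the class II transactivator. They were chosen by name, as the core of the pathway, from the 52636 gene identifiers counted in cultured mouse microglia. All 7 had counts, and 6 of the 7 had enough of them to be tested. H2-Aa, with 2 to 38 counts per library, did not.

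Class II molecules show peptides from engulfed material to CD4+ T cells. An alpha and a beta chain assemble around the invariant chain in the endoplasmic reticulum, proteases trim the invariant chain in endosomes, and the H2-DM dimer then exchanges its last fragment for an antigenic peptide. Ciita does not bind DNA itself but is recruited to the X and Y boxes of these promoters by the RFX, CREB and NF-Y factors, and its own transcription is classically induced by interferon-gamma. Microglia, the resident macrophages of the brain, express little class II at rest.

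Primary microglia came from the brains of wild-type C57BL/6 pups aged 1 to 2 days and were shaken off mixed glial cultures, so that other glia of those cultures may be carried along. In all 3 groups, 50000 cells per well received 2.5 ng of the microglial survival factor CSF1 and were harvested 24 h after addition of vehicle (Vehicle), of 5 µg of full-length neurofilament light chain (FL-NfL) or of 5 µg of its coiled-coil part (CC-NfL). Neurofilament light chain is a structural protein of axons that reaches the tissue fluid when neurons are damaged. The doses were equal by mass, no gene was altered in any group, and each group had 4 libraries, 1 in each of 4 labelled batches. Nothing in the labels says that the batches were separate cultures or litters, and p-values therefore reflect only how far these libraries scatter, which may be partly technical.

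Libraries held 20162427 to 31048044 counts, of which the 7 genes took 0.00333% to 0.00794%. The 10 microglia markers, among them Csf1r and Cx3cr1, summed to between 8148 and 9636 CPM (read counts relative to the library total, scaled by TMM factors) with Vehicle, between 6920 and 7239 with FL-NfL and between 8032 and 8703 with CC-NfL; Siglech alone was too low to test. The microglia sum joins genes that moved in opposite directions with FL-NfL. Of the 9 tested, 1 was called higher than Vehicle at an adjusted p under 0.05 (Aif1, log2 fold change 1.83). The 4 called lower include Csf1r and Cx3cr1, and 24.9% of all tested genes were called. With the batch as a block in the model, 3 were called higher and 5 lower, against 43.8% of all tested genes. Cd3e and Cd3d, defining genes of T cells, had 0 counts in all 12 libraries, as did Cd209a of dendritic cells.

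The class II chain genes lie together on chromosome 17, where the GENCODE M21 annotation of GRCm38 places H2-Ab1 (ENSMUSG00000073421) at chr17:34257689-34269419 on the plus strand, H2-Aa (ENSMUSG00000036594) at chr17:34282744-34287823 on the minus strand and H2-Eb1 (ENSMUSG00000060586) at chr17:34305867-34316674 on the plus strand. H2-DMa (ENSMUSG00000037649, chr17:34119541-34139101) and H2-DMb1 (ENSMUSG00000079547, chr17:34153072-34160230) lie nearby on the plus strand. Cd74 and Ciita lie on other chromosomes. RefSeq promoter windows (GRCm38.p6, 250 bases before to 50 after the start) were found for 4 of the 7 genes, 5 windows in all, and were used for H2-Aa, H2-DMa, H2-DMb1 and H2-Eb1. The 150 bases before the start sites of an alpha and a beta chain gene are shown because they hold the letters through which Ciita is recruited at such promoters. Capitals mark the matches named in the next paragraph.
H2-Aa, chr17:34287824-34287973, minus strand: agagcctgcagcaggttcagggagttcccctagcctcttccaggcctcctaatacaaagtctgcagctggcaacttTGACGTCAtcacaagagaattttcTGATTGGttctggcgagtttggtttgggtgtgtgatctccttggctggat
H2-Eb1, chr17:34305717-34305866, plus strand: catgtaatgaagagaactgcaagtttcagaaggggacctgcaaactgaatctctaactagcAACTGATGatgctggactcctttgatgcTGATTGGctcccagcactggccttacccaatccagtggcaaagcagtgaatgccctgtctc

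The motifs were chosen after the sequences had been read and were searched on both strands, and a match is a description of letters only. TGATTGG, the inverted CCAAT letters of a Y box, stood 61 to 55 bases before the start in H2-Eb1, 63 to 57 before it in H2-DMb1 and 50 to 44 before it in H2-Aa. It was found in 7.82% of the 32851 windows of 300 bases. AACTGATG, letters of the X box that RFX and CREB factors share, stood 89 to 82 bases before the start in H2-Eb1 and 92 to 85 before it in H2-DMb1, against 0.776% of all windows. Both motifs occurred together in 28 windows, 0.0852% of all. H2-Aa had in place of those X box letters the CRE palindrome TGACGTCA, which CREB family factors bind, 74 to 67 bases before its start (1.79% of windows, 0.152% together with TGATTGG). The matches do not overlap each other. None of the 3 motifs was found in the windows of H2-DMa.

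Class II transcripts were scarce with Vehicle, and the invariant chain was by far the most abundant of them. Per kilobase of exon, the Vehicle levels were 22.9 ± 10.5 CPM per kb for Cd74 (SD, n = 4, as in all levels here) and 6.73 ± 1.56 for H2-DMb1. They were 1.56 ± 0.653 CPM per kb for H2-DMa and 0.749 ± 0.547 for H2-Ab1. The remaining members stood lower still, H2-Eb1 at 0.323 ± 0.196 CPM per kb, H2-Aa at 0.158 ± 0.135 and Ciita at 0.0970 ± 0.0721. The same order of means held in all 3 groups. In Vehicle, the 4 libraries of Cd74, H2-DMb1 and H2-DMa formed separate ranges, whereas each neighbouring pair from H2-DMa down to Ciita overlapped; with FL-NfL, H2-DMa, H2-Ab1 and H2-Eb1 also kept apart.

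Set among the 14688 genes ranked by CPM per kb in Vehicle (the 14687 tested and H2-Aa), Cd74 stood above 87.0% of genes and H2-DMb1 above 61.9%, but H2-Ab1 above 22.7%, H2-Aa above 6.19% and Ciita above 2.86%. Class I presentation, which shows peptides from inside the cell, was on another scale in the same libraries: the heavy chain gene H2-K1 averaged 311 CPM per kb, H2-D1 534 and their shared light chain B2m 3925. Cd74 alone made up 56.4% to 71.4% of the counts of the 7 genes in a library. Lengths are those of all annotated exons together, so that genes with rarely used exons, for example the 9535 bases of Ciita, read low on this scale. In bulk RNA, fewer cells of a type and less RNA per cell cannot be told apart.

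**Figure D1:**
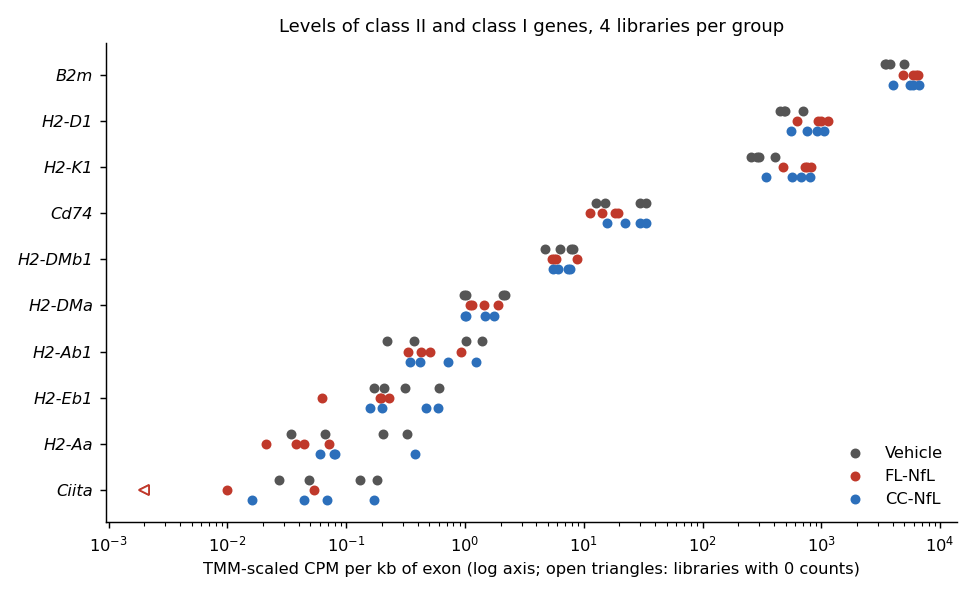
TMM-scaled CPM per kb of exon (log axis) of the 7 class II genes and 3 class I genes in each of the 12 libraries, 1 point per library, coloured by group, with an open triangle at the left for libraries with 0 counts. Class I genes sit above every class II gene in all libraries, and Cd74, at 22.9 CPM per kb on average in Vehicle, is the highest class II gene.

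The first comparison asked whether full-length neurofilament light chain alters class II transcripts. Without the batch in the model, none of the 6 tested members was called in either direction, against 24.9% of all tested genes (10.9% called lower). All 6 had log2 fold changes below 0, with a median of −0.49, against −0.02 over all tested genes. With the batch as a block, 2 of the 6, Cd74 and Ciita, were lower with FL-NfL and none was higher, against 43.8% of all tested genes called (22.4% lower). That share of 2 in 6 is not far from the background, so that the calls say little of class II as a set. For every member the 4 FL-NfL libraries overlapped the 4 Vehicle libraries, whereas 25.8% of tested genes had groups that did not overlap.

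Cd74 (ENSMUSG00000024610, chr18:60803848-60812652, plus strand) encodes the invariant chain, which escorts class II molecules to endosomes and keeps their groove occupied on the way. In replicates 1 to 4 it stood at 50.4, 25.2, 56.7 and 21.4 CPM with Vehicle. With FL-NfL it stood at 32.8, 23.7, 30.7 and 19.1 CPM. With CC-NfL it stood at 50.4, 37.2, 56.0 and 26.3 CPM. Batches 1 and 3 were the high ones in every group, and in each batch the FL-NfL library was the lowest of the 3. The mean was 38.4 ± 17.7 CPM with Vehicle and 26.6 ± 6.34 with FL-NfL, which gave a fold change on the log2 scale of −0.53 ± 0.33 (SE; edgeR quasi-likelihood test, adjusted p = 0.251). With the batch as a block it was −0.46 ± 0.12 (adjusted p = 0.00893). Within batches 1 to 4 the log2 difference was −0.62, −0.09, −0.89 and −0.17, so that the difference was larger in the 2 high batches. Leaving out batch 3 (an alternative added after seeing the data) reduced the blocked value to −0.30 and ended the call (adjusted p = 0.0675), and the call held without any other batch.

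Ciita (ENSMUSG00000022504, chr16:10480059-10528418, plus strand), the transactivator on which class II transcription depends, had few counts, and the lowest level per kilobase of the 7 genes. Replicates 1 to 4 held 40, 11, 31 and 6 counts with Vehicle (1.74, 0.461, 1.25 and 0.259 CPM). They held 15, 0, 0 and 2 counts with FL-NfL (0.509, 0, 0 and 0.0949 CPM). They held 43, 13, 13 and 4 counts with CC-NfL (1.64, 0.422, 0.652 and 0.154 CPM). In each batch the FL-NfL library was the lowest of the 3, and the 0 counts in batches 2 and 3 allow levels of up to 0.121 and 0.126 CPM (3 counts). FL-NfL replicate 1 nonetheless exceeded the Vehicle libraries of batches 2 and 4. The sums over 4 libraries were 88 counts with Vehicle, 17 with FL-NfL and 73 with CC-NfL. The log2 fold change between FL-NfL and Vehicle was −2.47 ± 1.01 and missed the threshold (unadjusted p = 0.0306, adjusted p = 0.0925), while the blocked one was −2.70 ± 0.58 (adjusted p = 0.00341). The blocked call held without each of the 4 batches (−4.23 to −2.09, adjusted p = 0.00393 to 0.0157). Without FL-NfL replicate 1, which held 15 of the 17 counts of its group, the unblocked fit called it (−4.76, adjusted p = 0.0191). Leaving out that library could hardly do other than enlarge the fold change, so that fit adds no weight to the blocked call. Exons of Ciita overlap those of Dexi on the opposite strand, and the strand setting of the counting is not given in the sources used here.

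**Figure D2:**
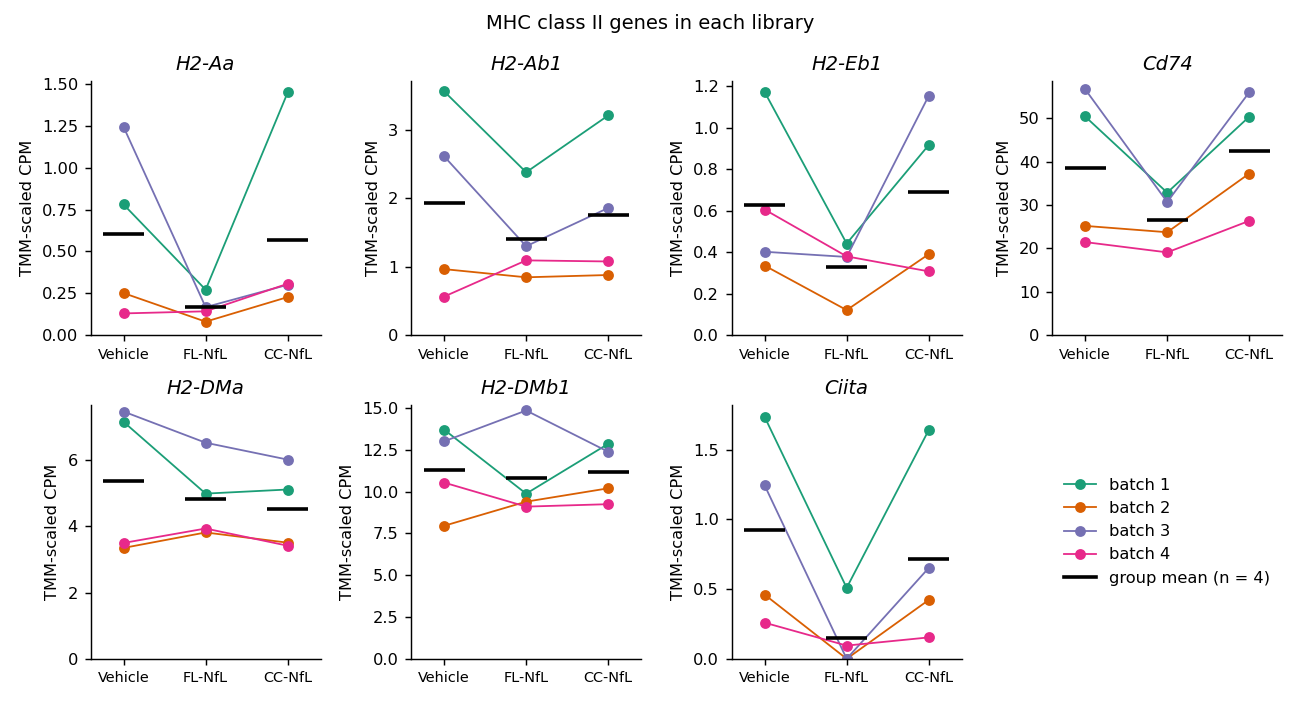
TMM-scaled CPM (linear axes from 0) of the 7 class II genes in each library, by group on the x axis; lines join the 3 libraries of a batch and black bars are group means (n = 4). In Cd74 and Ciita all 4 lines dip at FL-NfL, and the lines keep widely different heights from batch to batch.

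The I-A molecule, the class II dimer of C57BL/6 mice, pairs the products of H2-Aa and H2-Ab1. H2-Ab1, its beta chain, stood at 3.56, 0.963, 2.61 and 0.562 CPM in Vehicle replicates 1 to 4, and at 2.38, 0.844, 1.30 and 1.09 CPM with FL-NfL. It was lower with FL-NfL in batches 1 to 3 and higher in batch 4. Its log2 fold change was −0.45 ± 0.58 (adjusted p = 0.592), and −0.36 ± 0.26 with the batch as a block (adjusted p = 0.286).

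H2-Aa, the alpha chain, had 18, 6, 31 and 3 counts with Vehicle and 8, 2, 4 and 3 with FL-NfL, or 0.602 ± 0.514 and 0.165 ± 0.0797 CPM on average. It was lower with FL-NfL in batches 1 to 3 with log2 differences of −1.52, −1.64 and −2.89, and in batch 4 the difference was 0.13. It failed the filter on low counts, and in a fit with no filter, over 26839 genes, its log2 fold change was −1.79 ± 0.75 (adjusted p = 0.159). With no filter and the batch as a block, a fit added after seeing the data, it was −1.79 ± 0.53 (adjusted p = 0.0108). That fit called 763 genes between CC-NfL and Vehicle, where the blocked fit with the filter called 2, so its adjusted p is the less certain. The ratio of H2-Aa to H2-Ab1 (per kb) was 0.0644 to 0.0882 in the 4 FL-NfL libraries, below all 8 of the others (0.148 to 0.322 with Vehicle, 0.110 to 0.306 with CC-NfL). The ratio rests on 2 to 8 H2-Aa counts per FL-NfL library and was noticed in the data, so no test is given.

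H2-Eb1 encodes the beta chain of I-E, whose alpha chain C57BL/6 mice do not make. It held 27, 8, 10 and 14 counts with Vehicle and 13, 3, 9 and 8 with FL-NfL (1.17, 0.335, 0.402 and 0.605 against 0.441, 0.121, 0.377 and 0.379 CPM). It was lower with FL-NfL in 4 of 4 batches, barely so in batch 3. Together with Cd74 and Ciita, that makes 3 of the 6 tested members lower in every batch, where 28.1% of all tested genes were. The log2 fold change of H2-Eb1 was −0.91 ± 0.56 (adjusted p = 0.248), and −0.92 ± 0.43 with the block (adjusted p = 0.1003).

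The exchange genes H2-DMa and H2-DMb1 were the steadiest members. H2-DMa, the alpha chain of the exchange dimer, stood at 7.16, 3.35, 7.47 and 3.50 CPM with Vehicle and at 4.99, 3.82, 6.53 and 3.94 with FL-NfL, with a log2 fold change of −0.16 ± 0.31 (adjusted p = 0.731). H2-DMb1, the beta chain, stood at 13.7, 7.96, 13.0 and 10.5 CPM with Vehicle and at 9.88, 9.40, 14.9 and 9.11 with FL-NfL, with a log2 fold change of −0.06 ± 0.20 (adjusted p = 0.832). Each was higher with FL-NfL in 2 of 4 batches. The block left both uncalled (adjusted p = 0.521 and 0.716). The exons of H2-DMa overlap those of Brd2 on the opposite strand, and H2-DMb1 has a near-identical neighbour, H2-DMb2, between which reads of 50 bases may be split or dropped, so both levels are uncertain.

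**Figure D3:**
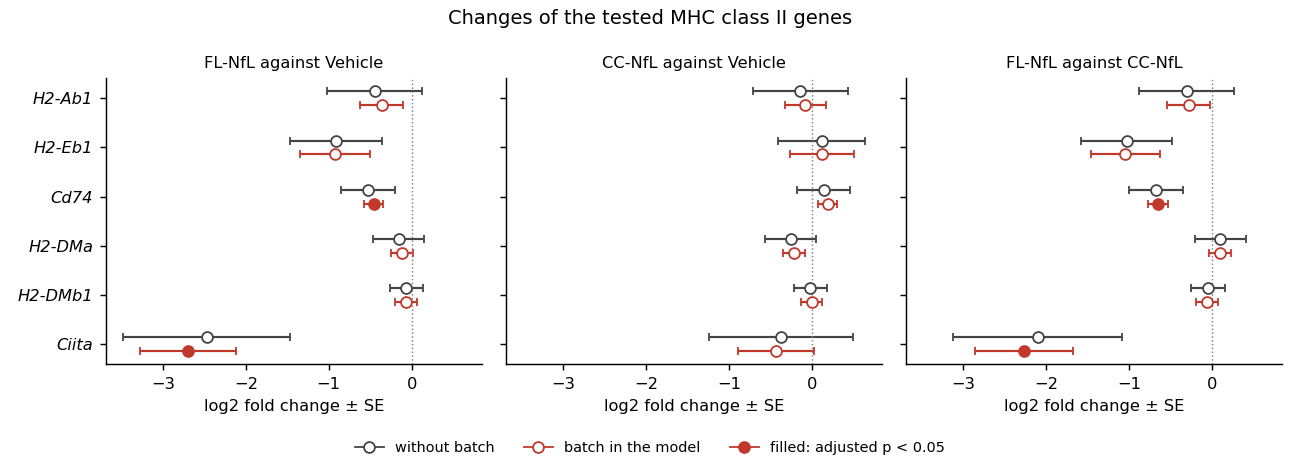
Log2 fold change ± SE of the 6 tested class II genes in the 3 comparisons, from 4 libraries per group, without the batch in the model (grey) and with it (red); filled points pass an adjusted p of 0.05. Only Cd74 and Ciita have filled points, in the fits with batch, in both comparisons that involve FL-NfL.

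The second comparison asked the same of the coiled-coil part alone. No member was called in either fit, against 0% of all tested genes without the block and 0.0136% with it, and all 6 tested members lay between −0.37 (Ciita) and 0.14 (Cd74) on the log2 scale, with a median of −0.08 against 0.00 over all tested genes. Of the 14687 tested genes the edgeR quasi-likelihood test called 0, although 1082 had an unadjusted p under 0.05 (0 of them members), and DESeq2's Wald test called 33 genes, none a member. Cd74 averaged 42.5 ± 13.3 CPM with CC-NfL (fold change on the log2 scale 0.14 ± 0.32, adjusted p = 0.933). It was higher than Vehicle in batches 2 and 4 and nearly equal in batches 1 and 3. The 2 groups overlapped for every member, while 2.72% of tested genes had groups that did not. Ciita was lower in 4 of 4 batches, with log2 differences of −0.08, −0.13, −0.93 and −0.76, as were 12.2% of all tested genes, and its log2 fold change was −0.37 ± 0.87 (adjusted p = 0.933).

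The 3 chain genes showed no common direction with CC-NfL. H2-Aa held 38, 7, 6 and 8 counts, higher than Vehicle in batches 1 and 4 and lower in batches 2 and 3. H2-Ab1 averaged 1.75 ± 1.06 CPM (log2 fold change −0.14 ± 0.57, adjusted p = 0.960) and H2-Eb1 0.692 ± 0.409 CPM (0.12 ± 0.53, adjusted p = 0.965). H2-DMa averaged 4.52 ± 1.27 CPM (−0.26 ± 0.31, adjusted p = 0.881) and H2-DMb1 11.2 ± 1.73 CPM (−0.02 ± 0.20, adjusted p = 0.988). Without the block, the standard errors of H2-Ab1, H2-Eb1 and Ciita were 0.53 to 0.87 on the log2 scale. Changes of that size, and larger ones, could go uncalled at this depth and spread. In the same fit, for example, the −2.47 ± 1.01 of Ciita with FL-NfL was not called.

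The third comparison set the full-length protein against its coiled-coil part directly. Without the batch, 0 of 6 tested members were called, against 2.72% of all tested genes, and the median log2 fold change was −0.49 against −0.02 over all tested genes. None of the 6 had an unadjusted p under 0.05 in that fit, and 2 had one in DESeq2's Wald test, which called none. With the batch as a block, Cd74 and Ciita were again lower with FL-NfL, 2 of 6 against 10.1% of all tested genes called lower (19.1% in either direction). Both comparisons use the same FL-NfL libraries, so the second result is not independent of the first. The 2 groups overlapped for every member, against 12.5% of tested genes whose groups did not.

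Cd74 was lower with FL-NfL than with CC-NfL in 4 of 4 batches, with log2 differences of −0.62, −0.65, −0.87 and −0.47, more even than those against Vehicle. Its log2 fold change was −0.67 ± 0.33 without the block (adjusted p = 0.258) and −0.65 ± 0.12 with it (adjusted p = 0.00486). The blocked call held without each batch in turn (−0.71 to −0.58, adjusted p = 0.0146 to 0.0213). Ciita was likewise lower in 4 of 4 batches, with log2 fold changes of −2.10 ± 1.02 (adjusted p = 0.258) and, with the block, −2.26 ± 0.59 (adjusted p = 0.0235). That call was less firm, since it was kept without batch 1 (adjusted p = 0.0351) and lost without batch 2, 3 or 4 (adjusted p up to 0.0734). A same direction in 4 of 4 batches was found for 22.3% of all tested genes on the lower side.

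H2-Aa was also below CC-NfL in 4 of 4 batches, with log2 differences of −2.42, −1.50, −0.85 and −1.11. Its unfiltered log2 fold change was −1.72 ± 0.75 (adjusted p = 0.340), and −1.71 ± 0.53 with the block as well (adjusted p = 0.0295). H2-Eb1 was lower in 3 of 4 batches (−1.03 ± 0.55, adjusted p = 0.309; blocked adjusted p = 0.102). H2-Ab1 differed by −0.31 ± 0.58 (adjusted p = 0.789), H2-DMa by 0.10 ± 0.31 (adjusted p = 0.874) and H2-DMb1 by −0.05 ± 0.20 (adjusted p = 0.913).

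For most members the batch, not the treatment, held most of the variation between libraries. The batch took 87.8% of the variance of log2 CPM for H2-DMa, 84.1% for H2-Ab1, 70.6% for H2-DMb1 and 67.5% for Cd74. The treatment took 48.1% for Ciita, more than its batch share of 38.7%, and 29.1% for H2-Aa, 26.4% for H2-Eb1 and 25.4% for Cd74. For H2-Ab1, H2-DMa and H2-DMb1 it took 1.25% to 3.43%. Random scatter alone would also give the treatment and the batch a share. The shares over all genes were not computed and none was tested, so the shares only describe these libraries. Within Vehicle alone, the highest library exceeded the lowest 9.60-fold for H2-Aa, 6.69-fold for Ciita, 6.33-fold for H2-Ab1, 2.64-fold for Cd74 and 1.72-fold for H2-DMb1. Batches 1 and 3 lay above batches 2 and 4 in all 3 groups for H2-Ab1, Cd74, H2-DMa and H2-DMb1.

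Across the 12 libraries, which share 4 batches, the members varied together. Pearson's r of log2 CPM was highest for H2-DMa with H2-DMb1 (0.867), H2-Aa with Ciita (0.845) and H2-Aa with H2-Ab1 (0.833), and lowest for H2-DMb1 with Ciita (0.310). With group means removed it was 0.928 for Cd74 with H2-DMa and 0.911 for H2-Aa with H2-Ab1. Of 9247 genes averaging 5 CPM or more, those whose profile was most like the mean of H2-Aa, H2-Ab1, H2-Eb1 and Cd74 were Sorl1, a sorting receptor (r = 0.958), Nucb1 (0.949), Clec4n (0.945), Plp2 (0.937), Txnip (0.937), Sh3tc1 (0.937), Btg1 (0.936) and Chd4 (0.928). With group means removed, Ecm1 (0.980), Sorl1 (0.978), Chd4 (0.974), Pygl (0.963), Tmem37 (0.951), Nucb1 (0.948), Psap (0.946) and Sh3tc1 (0.946) came first. These values describe the 12 libraries and were given no test.

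Markers of several other cell types also moved with the batches and with FL-NfL, in different directions. The 8 dendritic cell markers, of which 4 could be tested and which are carried here mostly by Itgax, a gene that microglia can also express, summed to 63.7, 28.4, 32.0 and 20.6 CPM in Vehicle replicates 1 to 4, to 47.3, 17.8, 20.2 and 11.9 with FL-NfL and to 85.0, 18.8, 24.4 and 16.6 with CC-NfL. Batch 1 was highest in each group, and FL-NfL was below Vehicle in each batch. Flt3 and Ccr7 had 0 counts in Vehicle. Of the 4 tested genes 1, Xcr1, was called, higher with FL-NfL (log2 fold change 1.47 ± 0.45, adjusted p = 0.0328), against 24.9% of all tested genes called. With the block 2 were called higher, Xcr1 and Batf3, and 2 lower, Itgax (−0.9999, adjusted p = 0.00123) and Zbtb46 (−0.44, adjusted p = 0.0408), against 43.8% of all tested genes called. The 4 monocyte markers summed to 4.02 to 17.5 CPM with Vehicle, 3.37 to 8.58 with FL-NfL and 4.30 to 11.5 with CC-NfL. Batch 3 was highest, and FL-NfL was below Vehicle in each batch. Of the 2 tested, Ccr2 and Ly6a, neither was called, against 24.9% of all tested genes. With the block both were called lower, against 43.8% of all tested genes called (22.4% lower). Ly6c2, too low to test, was higher with FL-NfL than with Vehicle in 4 of 4 batches (0.0751 ± 0.125 to 0.268 ± 0.370 CPM). The 8 border macrophage markers, which include Mrc1, summed to 1151 to 2181, 1105 to 1584 and 1178 to 1947 CPM in the 3 groups, again with batch 3 highest. That sum joins genes that moved in opposite directions. Of the 7 tested, 1 was called higher with FL-NfL (Cd209f) and 2 lower (Mrc1 and F13a1), against 24.9% of all tested genes called. With the block 3 were higher and 3 lower, against 43.8%. The 5 B cell markers summed to at most 1.87 CPM, with FL-NfL above Vehicle in each batch. Their 1 tested gene, Cd79b, was called higher with FL-NfL (0.475 ± 0.0675 to 1.40 ± 0.272 CPM, log2 fold change 1.56 ± 0.27, adjusted p = 0.00269). The 6 markers of T and NK cells summed to at most 1.69 CPM. Markers of astrocytes, oligodendrocytes and neurons were each below Vehicle in every FL-NfL library of the same batch; the 5 neuron markers, for example, summed to 15.8 to 52.5 CPM with Vehicle, 7.45 to 25.4 with FL-NfL and 12.6 to 39.4 with CC-NfL. The 7 fibroblast and endothelial markers summed to 2.72 to 10.4 CPM with Vehicle, 5.69 to 10.4 with FL-NfL and 3.61 to 10.4 with CC-NfL. FL-NfL was above Vehicle in batches 2 to 4 and nearly equal in batch 1. Of the 5 tested, 1 was called higher with FL-NfL (Cdh5, log2 fold change 1.34 ± 0.34, adjusted p = 0.0153), against 24.9% of all tested genes called. With the block 1 was higher (Cdh5) and 1 lower (Pdgfrb), against 43.8%. What part these cells had in the class II levels was not tested.

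The other class II chains were scarce as well. Of 5 genes listed, H2-Eb2 and H2-Ea-ps had 0 counts in all libraries and 3 were tested. H2-Ob, the beta chain of H2-O, which restrains H2-DM, averaged 0.775 ± 0.265 CPM with Vehicle, 0.424 ± 0.109 with FL-NfL and 0.485 ± 0.120 with CC-NfL. Its log2 fold change between FL-NfL and Vehicle was −0.88 ± 0.33 (adjusted p = 0.0688; −0.87 with the block, adjusted p = 0.0484), and between CC-NfL and Vehicle it was −0.67 ± 0.32 (adjusted p = 0.685). H2-Oa (−0.18 ± 0.50, adjusted p = 0.809) and H2-DMb2 (0.12 ± 0.39, adjusted p = 0.835) were not called in either fit.

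Of the 8 factors that hold Ciita at class II promoters, 2 fell with FL-NfL and none rose (median −0.17), a share of calls near the 24.9% of all tested genes. They were Rfxap, an RFX subunit (13.9 ± 0.648 to 10.0 ± 1.45 CPM, log2 fold change −0.47 ± 0.12, adjusted p = 0.0144), and Nfyb, an NF-Y subunit (20.7 ± 1.94 to 15.6 ± 1.65 CPM, −0.41 ± 0.11, adjusted p = 0.0197). Rfx5, the DNA-binding RFX subunit, had −0.29 ± 0.17 (adjusted p = 0.219), and with the block it too was called lower (adjusted p = 0.0205), as was Creb1 (adjusted p = 0.0285), making 4 of 8 against 43.8% of all tested genes called with the block (22.4% lower). Without FL-NfL replicate 2, FL-NfL replicate 4 or Vehicle replicate 4, the unblocked count was 1. No factor was called with CC-NfL, where Rfxap had the smallest p (−0.15 ± 0.12, adjusted p = 0.801).

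Of the 21 tested inducers and brakes of Ciita, 5 rose and 5 fell with FL-NfL, with a median of −0.01, against 24.9% of all tested genes called. With the block 6 rose and 6 fell, against 43.8%. Ifng itself had 0 counts in all libraries. The smallest p-values were those of Tgfbr1, a receptor of the TGF-beta brake (290 ± 32.7 to 167 ± 12.8 CPM, log2 fold change −0.79 ± 0.09, adjusted p = 0.000453), of Il10, a cytokine that restrains class II (1.66 ± 0.650 to 6.26 ± 2.23 CPM, 1.92 ± 0.32, adjusted p = 0.00216), and of Prdm1, a repressor of Ciita (56.0 ± 3.41 to 38.3 ± 4.34 CPM, −0.55 ± 0.09, adjusted p = 0.00226). Ifngr1, the ligand-binding chain of the interferon-gamma receptor, fell from 267 ± 21.3 to 188 ± 26.9 CPM (−0.50 ± 0.11, adjusted p = 0.00725), and was lower with FL-NfL than with CC-NfL as well (−0.48 ± 0.11, adjusted p = 0.0417). Among these genes, brakes were thus found on both sides, and Ifngr1, on the inducing side, fell. Jak2, a kinase of the same list, rose from 83.1 ± 8.77 to 116 ± 11.9 CPM (0.48 ± 0.09, adjusted p = 0.00337).

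Irf1, a transcription factor that acts on the inducible promoter of Ciita, had a log2 fold change of −0.05 ± 0.17 (adjusted p = 0.860). Between FL-NfL and CC-NfL, the fit with the block called 4 of the 21 genes higher and 4 lower, against 19.1% of all tested genes called. Without the block 2 were called, Ifngr1 and Tgfbr1, both lower, against 2.72% of all tested genes. Neither was called in every fit that left out 1 library: without CC-NfL replicate 1, 3 or 4 or FL-NfL replicate 2 or 4, the count was 0, and without Vehicle replicate 1, 2 or 4 it was 1. With CC-NfL none was called against Vehicle, and Nr1h3, a nuclear receptor for oxysterols, had the smallest p (1.15 ± 0.32, adjusted p = 0.621).

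Among 12 tested enzymes and inhibitors of antigen processing, 3 rose and 3 fell with FL-NfL (median 0.21), against 24.9% of all tested genes called. Cst3, an inhibitor of cysteine cathepsins, fell from 1072 ± 97.1 to 711 ± 85.6 CPM (log2 fold change −0.59 ± 0.10, adjusted p = 0.00265), while Cstb, another such inhibitor, rose from 247 ± 34.3 to 342 ± 8.92 CPM (0.47 ± 0.10, adjusted p = 0.00612). Ctsd, an aspartic protease, fell from 10370 ± 593 to 7520 ± 573 CPM (−0.46 ± 0.10, adjusted p = 0.00765). Ctss, the protease that makes the last cuts in the invariant chain, was not called (0.16 ± 0.14, adjusted p = 0.410), nor was Ifi30, a thiol reductase of the same compartment (0.24 ± 0.29, adjusted p = 0.571; with the block 0.23, adjusted p = 0.0128). With the block 6 rose and 4 fell, against 43.8% of all tested genes called. Without the block, the count of risers was 1 without Vehicle replicate 4 and 5 without Vehicle replicate 3. Cst3 was the 1 gene of this list called between FL-NfL and CC-NfL (−0.52 ± 0.10, adjusted p = 0.0276), against 2.72% of all tested genes called. That call was lost in the fit of those 2 groups alone and without CC-NfL replicate 1 or 3 or FL-NfL replicate 2 or 4. With CC-NfL against Vehicle none was called, and Cstb had the smallest p (0.24 ± 0.10, adjusted p = 0.674).

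Of 9 genes of class II trafficking and turnover, 2 fell and 1 rose with FL-NfL, a share of calls near the 24.9% of all tested genes. Cd9, a tetraspanin, fell from 362 ± 53.7 to 97.1 ± 33.9 CPM (log2 fold change −1.90 ± 0.34, adjusted p = 0.00288), and Cd63, a tetraspanin of the endosomes in which class II is loaded, from 352 ± 36.1 to 250 ± 29.6 CPM (−0.49 ± 0.12, adjusted p = 0.0115). March8, a ubiquitin ligase of membrane proteins, rose from 138 ± 11.5 to 171 ± 14.8 CPM (0.31 ± 0.08, adjusted p = 0.0155). March1, the ligase that sends class II and Cd86 for degradation, had 0.39 ± 0.25 (adjusted p = 0.269), and with the block it too was called (0.42, adjusted p = 0.0124), as was Cd81, which made 3 risers and 2 fallers of 9 against 43.8% of all tested genes called. With CC-NfL none was called, and Cd63 had the smallest p (−0.25 ± 0.12, adjusted p = 0.685).

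Class I genes rose with FL-NfL while no class II member did. Of 12 class I genes, 8 rose with FL-NfL and none fell (median 0.69 against −0.49 for the class II members), and with the block all 12 were called higher, against 24.9% and 43.8% of all tested genes called in either direction. H2-K1 rose from 915 ± 192 to 2053 ± 446 CPM (log2 fold change 1.17 ± 0.25, adjusted p = 0.00668), Psme2, a proteasome activator, from 17.8 ± 4.06 to 38.1 ± 1.57 CPM (1.10 ± 0.17, adjusted p = 0.00143), and Psmb8, an immunoproteasome subunit, from 154 ± 44.4 to 329 ± 64.9 CPM (1.10 ± 0.26, adjusted p = 0.0110). The unblocked count fell to 3 without Vehicle replicate 1 or 4, to 4 without FL-NfL replicate 2 and to 5 without Vehicle replicate 2 or FL-NfL replicate 4. Nlrc5, which plays for class I the part Ciita plays for class II, averaged 136 ± 34.6 CPM with Vehicle and 169 ± 25.7 with FL-NfL (0.31 ± 0.18, adjusted p = 0.219; with the block 0.33, adjusted p = 0.0403). With CC-NfL no class I gene was called, and H2-K1 had the smallest p (0.94 ± 0.25, adjusted p = 0.621). The difference between the class I and class II lists was not tested.

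Of the 6 tested genes of T cell costimulation, 1 was called with FL-NfL, against 24.9% of all tested genes called. Cd274, the ligand of the inhibitory receptor PD-1, rose from 43.0 ± 13.3 to 125 ± 57.9 CPM (log2 fold change 1.54 ± 0.30, adjusted p = 0.00414). It was also the 1 gene of the list called against CC-NfL (1.22 ± 0.29, adjusted p = 0.0496), where 2.72% of all tested genes were called. That call fell away in the fit of those 2 groups alone and in 9 of the 12 fits that left out 1 library. With the block, 2 genes of this list were called higher and 2 lower with FL-NfL, against 43.8% of all tested genes called. Against Vehicle, CC-NfL called none, and Cd274 had the smallest p (0.32 ± 0.29, adjusted p = 0.836).

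**Figure D4:**
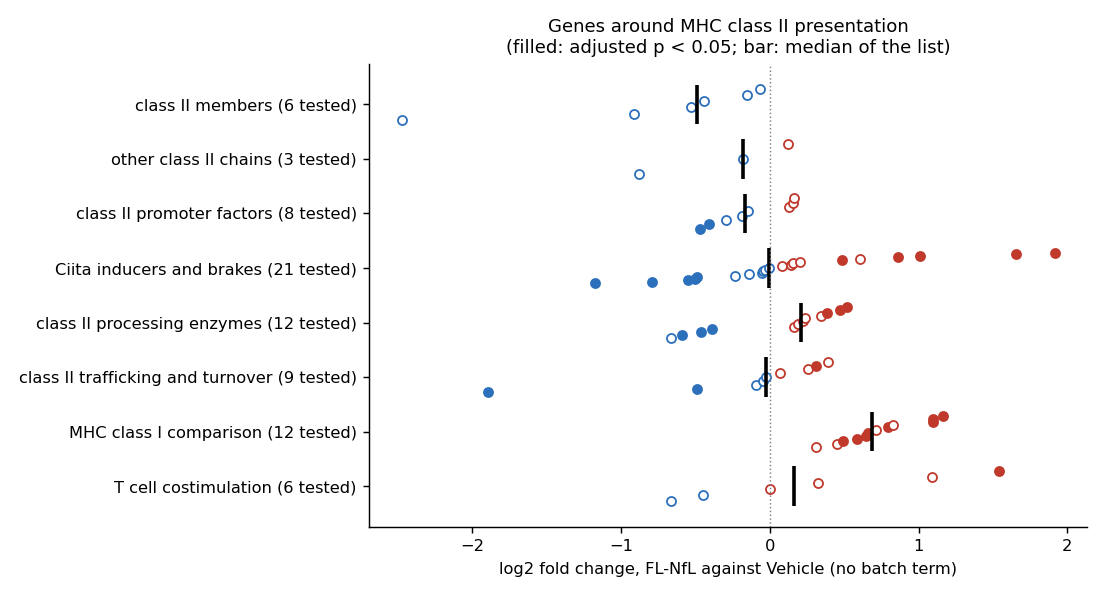
Log2 fold change between FL-NfL and Vehicle, without the batch in the model, of each tested gene in the class II list and in 7 lists around it (1 point per gene; filled where adjusted p is under 0.05; black bars are list medians). All 6 class II members lie left of 0 with open points, and all 12 class I genes lie right of 0, 8 of them filled.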

How the data were processed

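Expression was measured in 12 libraries of primary mouse microglia by sequencing of polyadenylated RNA (stranded kit, single reads of 50 bases). The authors deposited raw read counts per Ensembl gene with no normalization; per the submitters' processing notes, reads were aligned to GRCm38 with GSNAP. For the counting tool, the annotation release and the strand setting, the sources used here give nothing. Symbols, positions and exon lengths come from GENCODE M21, promoter sequences from RefSeq GRCm38.p6.

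Genes passing filterByExpr (14687) were scaled by TMM and fitted with edgeR 4.0.16 (R 4.3.3): all 12 libraries, 3 groups, 9 residual degrees of freedom, two-sided quasi-likelihood F tests, Benjamini-Hochberg adjustment over all tested genes, threshold 0.05 (a gene past it is called). The SE comes from the F statistic. An alternative added the replicate number as a block (6 degrees of freedom). The labels give each number its own batch, which pairs the libraries: with group means removed, same-number libraries correlated at 0.306 to 0.735 across genes (12 of 12 pairs over 0.1), others at −0.461 to 0.445. Other alternatives were DESeq2 1.42.0 (Wald test, and its size factors in edgeR), upper-quartile scaling, no filter, a mean of at least 5 CPM, the 2 compared groups alone, and leaving out each library. Log2 CPM used a prior count of 2. The scripts were tested on simulated data.

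The 7 members and the gene lists were chosen with earlier results of these data known. Beside the members, up to 3 called genes of smallest p per list and comparison against Vehicle are named, or the gene of smallest p where none was called, and H2-Oa, H2-Ob, H2-DMb2, Rfx5, Ifngr1, Irf1, Ctss, Ifi30, March1 and Nlrc5 in any case. Some genes of the lists are not reported here. Creb1, Cd81, Itgax, Zbtb46, Xcr1, Batf3, Cd209f, Mrc1, F13a1 and Cd79b were named after their values were seen. So were Aif1, Jak2, Ccr2, Ly6a, Ly6c2, Cdh5 and Pdgfrb.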

Additional observations from a re-analysis of the deposited data

Results flagged for a closer look

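In 2 of the 21 sets of 4 libraries formed by the 7 genes and 3 groups, 1 library stood far from the other 3 (its gap to the nearest, as a share of the range, was above Dixon's critical value of 0.829). Chance flags about 1 in 20 such sets. H2-Aa stood at 1.45 CPM in CC-NfL replicate 1, where the next library of the group had 0.307 CPM (gap share 0.935). H2-DMb1 stood at 14.9 CPM in FL-NfL replicate 3, where the next had 9.88 CPM (gap share 0.865). The libraries belong to batches 1 and 3, in which 4 of the 7 genes were higher than in batches 2 and 4 in all 3 groups.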

How the results depend on the processing

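Over all settings run for the 6 tested members, 394 fold changes kept their direction and their side of the threshold or were not called in either, 21 became called and 0 reversed while called. The replicate block, which the batch labels justify, changed no member's call other than those of Cd74 and Ciita in the comparisons with FL-NfL. It raised the members called lower from 0 to 2 against Vehicle and from 0 to 2 against CC-NfL. Leaving out 1 library gave 0 to 1 members called lower against Vehicle (1 without FL-NfL replicate 1).

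Over all genes, the block gave 3148 higher and 3284 lower calls with FL-NfL against Vehicle (2062 and 1594 without it), 1 and 1 with CC-NfL (0 and 0 without), and 1321 and 1485 with FL-NfL against CC-NfL (202 and 197 without). DESeq2's Wald test gave 24 higher and 9 lower with CC-NfL, and 797 and 628 between the protein forms. For the latter, a mean of at least 5 CPM gave 319 higher, and the 2 groups alone gave 85 and 83. Leaving out 1 library gave 1392 to 2349 higher and 992 to 1735 lower calls with FL-NfL, 0 to 18 and 0 to 8 with CC-NfL (the most without CC-NfL replicate 1), and 14 to 324 and 18 to 277 between the forms. The counts called lower with FL-NfL were smallest without FL-NfL replicate 2 (992), Vehicle replicate 4 (998) and FL-NfL replicate 4 (1013).

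Depth limits Ciita, H2-Aa and H2-Eb1 most, which had 0 to 43 counts per library. Of H2-Aa no filtered value exists. The fits that left out a whole batch and the unfiltered blocked fit were chosen after seeing the data.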
